A study of Mus musculus with 9 samples.

Results

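Per2, Nr1d2, Dbp and Bhlhe41 are 4 genes of the circadian clock and its output, and their transcript levels were described in adult mouse liver with and without the type 2 deiodinase gene Dio2. They were selected on their measured values, because these genes of the clock list appeared in the deposited table of genes that differed between genotypes. They made up 4 of the 1525 genes in that table, out of about 23004 genes quantified. The ratios below therefore describe the genes that were chosen and carry no test.

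RNA was sequenced from whole liver of 9 adult C57BL/6 mice, 5 control and 4 Alb-D2KO. Alb-D2KO mice carried a floxed Dio2 allele and Cre recombinase driven by the albumin promoter, which acts in hepatocytes. Control livers are labelled cre, and both genotypes were therefore taken to carry the Cre transgene. The authors describe the inactivation as hepatocyte-specific, and the other cell types of the liver were taken to keep their Dio2 allele. In bulk tissue fewer cells of a type cannot be told apart from less RNA per cell. The mice were fed chow under alternating light and dark. The hour of collection, age in weeks and sex of each animal are not given in the sources used here.

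The clock is a feedback loop of transcription. The heterodimer of CLOCK and ARNTL binds E-box elements and drives Per, Cry, Nr1d, Dbp and Bhlhe genes. PER and CRY proteins then inhibit that heterodimer, and BHLHE41 (also called DEC2) represses through the same E-boxes. NR1D1 and NR1D2 (REV-ERB alpha and beta) repress genes with ROR elements, among them Arntl, where RORA activates. DBP, with TEF and HLF, binds D-boxes and carries the rhythm to enzymes of liver metabolism. In mouse liver the transcripts of these genes rise and fall each day with different phases, so the level in a liver depends on the hour at which it was taken.

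The stretch directly upstream of the first annotated start is given for the 3 of 4 genes with an entry in the RefSeq promoter table (build GRCm38.p6, 5′ to 3′ on the gene's strand). Whether the clock loop acts on these stretches was not tested. Per2 has no entry there. Capitals mark the motifs found, and nothing downstream of the earliest GENCODE or RefSeq start is shown.
Bhlhe41 (chr6:145865559-145865670, minus strand): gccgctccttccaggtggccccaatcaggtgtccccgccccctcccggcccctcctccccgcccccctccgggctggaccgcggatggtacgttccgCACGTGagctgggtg
Nr1d2 (chr14:18239128-18239356, minus strand): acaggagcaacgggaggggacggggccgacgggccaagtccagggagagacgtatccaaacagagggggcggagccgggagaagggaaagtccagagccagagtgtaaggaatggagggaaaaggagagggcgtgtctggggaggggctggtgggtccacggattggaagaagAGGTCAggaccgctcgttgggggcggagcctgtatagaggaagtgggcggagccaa
Dbp (chr7:45704997-45705087, plus strand): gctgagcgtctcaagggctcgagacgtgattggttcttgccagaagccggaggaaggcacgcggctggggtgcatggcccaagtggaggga

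The whole 300-base windows were searched on both strands for the E-box CACGTG, its variant CACGTT, the D-box TTATGTAA and AGGTCA, the core of nuclear receptor sites that ROR, NR1D and thyroid hormone receptors share. Bhlhe41 held a CACGTG that ended 9 bases before its first annotated start. This motif occurred in 7.15% of all 32851 windows. Nr1d2 held an AGGTCA that ended 50 bases before its start, a motif found in 16.3% of windows. CACGTT (4.68% of windows) and TTATGTAA (0.938%) were found in 0 of the 3 windows. The Dbp window held 0 of the 4 motifs. Such matches are letters in a window and were not tested as binding sites.

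The deposited gene means were not scaled for depth, so the depth of the libraries was compared first. Reads assigned to genes ran from 29692773 to 37016072 in control and from 28864613 to 36332719 in Alb-D2KO libraries, and the ranges overlapped. The means were 33491489 ± 3199891 (SD, n = 5) and 31223823 ± 3447611 (SD, n = 4), a log2 difference of -0.10 (exact two-sided permutation p = 0.302, and 0.302 after Benjamini-Hochberg adjustment over 4 measures of depth). The estimated count of the median gene was 67.4 ± 7.19 (SD, n = 5) for control livers and 59.97 ± 10.03 (SD, n = 4) for livers of Alb-D2KO mice (adjusted p = 0.302, from an exact permutation p of 0.175). Both differences were within the spread between libraries, but both values were lower in Alb-D2KO. Fewer assigned reads lower every unscaled ratio below. The median gene can also follow expression, and depth and expression were not told apart in it. Without Alb-D2KO replicate 1, the deepest of its group, the log2 difference in assigned reads was -0.18 (exact permutation p = 0.0714).

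**Figure D1:**
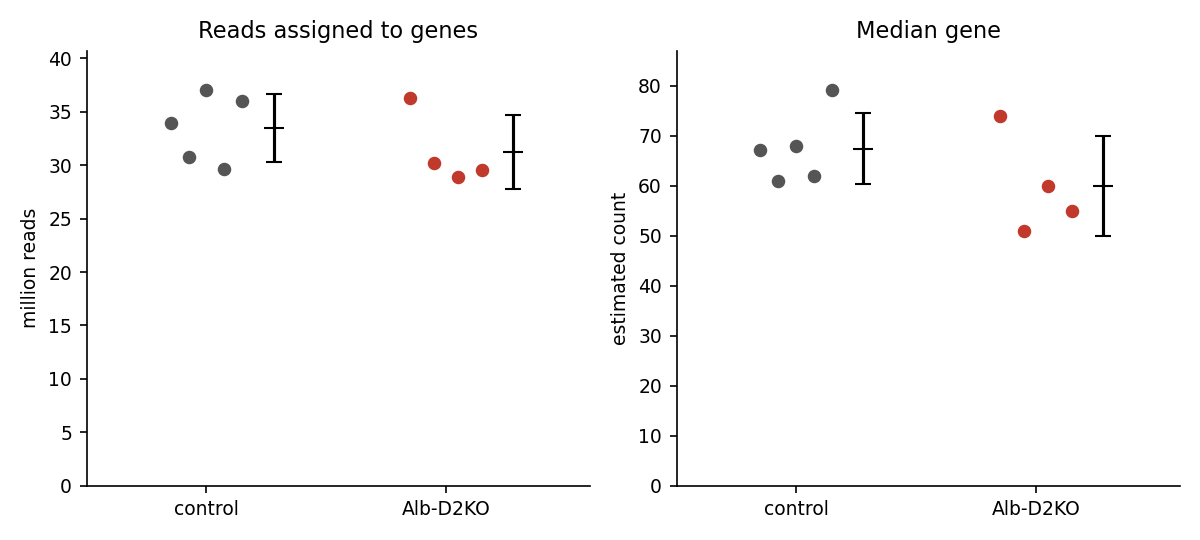
Depth of each library. The left panel gives reads assigned to genes, in units of 1000000, and the right panel the estimated count of the median gene. Points are livers (5 control, 4 Alb-D2KO), and bars at the side are mean ± SD. The genotypes overlap on both axes, and 1 Alb-D2KO library lies above the other 3.

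Dio2 itself was not in the gene table. Its level was not analysed here, and it therefore gave no check of the genotypes. The 7 hepatocyte markers looked up (Alb, Apoa1, Apob, Ttr, Serpina1a, Cps1 and Hnf4a) were likewise not in the table, 0 of 7, so the tissue label was not checked by level. The table gives 1 mean per gene and genotype, and values of single genes in single livers were not used here. No SD between animals is therefore given for a gene, and the intervals that follow are exact 95% intervals of counting error alone.

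Per2 was the member that was higher without Dio2. It encodes the period protein that, with CRY, inhibits CLOCK and ARNTL. The gene lies on chromosome 1 (91415982 to 91459324, minus strand, mm10; ENSMUSG00000055866.9). Its authors' mean was 2500.5 estimated counts per library in Alb-D2KO and 1762.4 in control liver. The ratio was 1.42, with a counting interval of 1.38 to 1.46. Among the 162 higher genes of the table it ranked 140th by ratio, in the lower part of the range, while its summed count of 18814 ranked 193rd of all 1525 genes. None of its 31-base transcript words, 0%, occurred in another gene.

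Dbp, the PAR bZIP activator that relays the clock to its targets, was the most abundant member and was lower. It lies on chromosome 7 (45705088 to 45710203, plus strand; ENSMUSG00000059824.12). Its authors' mean was 2858 estimated counts in Alb-D2KO and 3845 in control liver, a ratio of 0.743 (counting interval 0.726 to 0.761). By ratio it ranked 1004th of the 1363 lower genes. Of its transcript words, 16.9% were shared with Sphk2, whose exons overlap those of Dbp on the opposite strand. Whether reads were counted by strand is not given in the sources used here, so reads of that overlap cannot be assigned with certainty. Sphk2 was not in the table.

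Nr1d2, which encodes the heme-binding repressor REV-ERB beta, had the ratio nearest to 1. It lies on chromosome 14 (18204054 to 18239127, minus strand; ENSMUSG00000021775.11). Its authors' mean was 2309 estimated counts in Alb-D2KO and 2946 in control liver, a ratio of 0.784 (counting interval 0.764 to 0.805). It ranked 1228th of 1363 among lower genes, close to the smallest change in the table, 1.21-fold. Of its words, 9.51% were shared with the processed pseudogene AC170187.1, which was not in the table.

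Bhlhe41 was the least abundant member and the one with the ratio farthest from 1. It lies on chromosome 6 (145858243 to 145865558, minus strand; ENSMUSG00000030256.11). Its authors' mean was 193.8 estimated counts in Alb-D2KO and 377.6 in control liver, a ratio of 0.513 (counting interval 0.471 to 0.558). This interval is the widest of the 4, as its summed count was 2663. It ranked 279th of 1363 among lower genes.

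Of the words of Bhlhe41, 17.5% were shared with Gm43909, an unclassified transcript on the opposite strand within the Bhlhe41 locus. Gm43909 was in the table as well, at 12.4 estimated counts for Alb-D2KO and 34.2 for control, a ratio of 0.363 (counting interval 0.261 to 0.504). Gm43909 was singled out after its values were seen. Without strand in the counting, reads of the overlap could belong to either gene. The summed count of Gm43909, 220.6, was small beside that of Bhlhe41.

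Levels of different genes were compared per kilobase of exon and per 1000000 assigned reads. In control liver Dbp was highest at 38.4, followed by Nr1d2 at 16.3, Per2 at 8.99 and Bhlhe41 at 1.68. In Alb-D2KO liver Dbp was again highest at 30.6 and Bhlhe41 lowest at 0.924. Per2 and Nr1d2 both stood at 13.7 in Alb-D2KO, so on this scale the gap between them in control liver was no longer seen. This meeting point depends on the exon lengths used. Before that step, the quotient of Per2 to Nr1d2 was 1.08 in Alb-D2KO and 0.598 in control liver. Whether neighbours in this order differ beyond the spread between animals could not be asked of means alone.

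**Figure D2:**
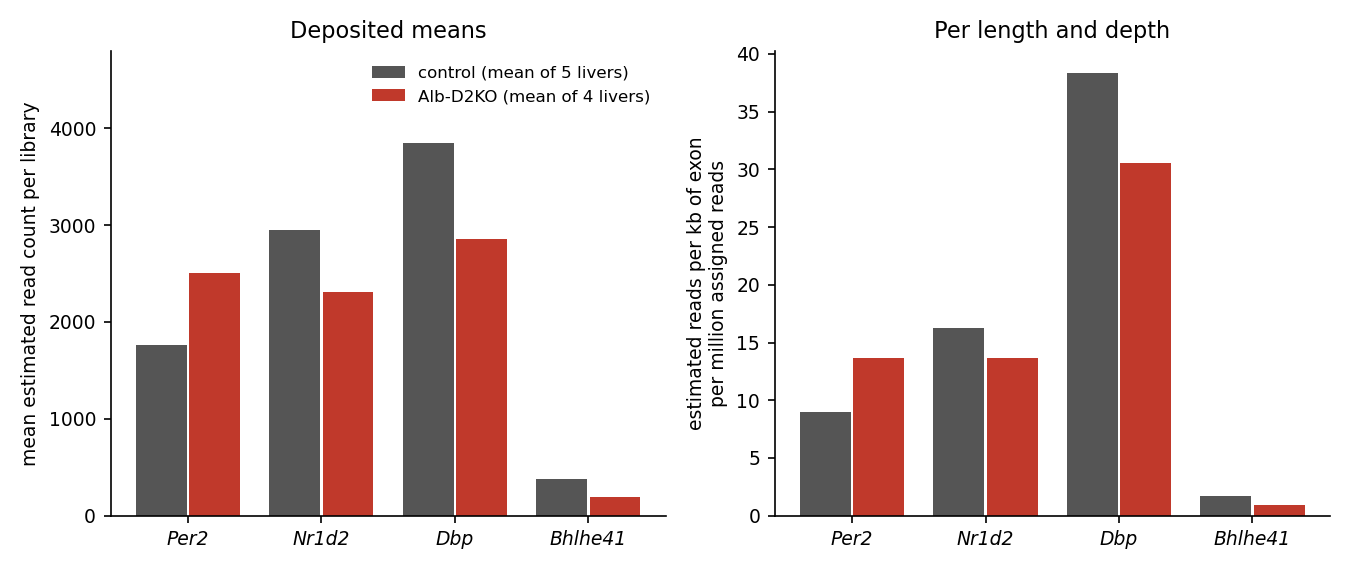
Levels of the 4 genes in control (grey) and Alb-D2KO (red) liver. Left, authors' mean estimated count per library. Right, the same means per kilobase of exon and per 1000000 assigned reads. Bars start at 0 and have no error bar because 1 mean per genotype was used. Per2 is the gene with the taller red bar in both panels.

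In a quotient of 2 members within a genotype, any factor common to all means of that genotype cancels. The quotient of the Per2 mean to the Dbp mean was 0.875 in Alb-D2KO and 0.458 in control liver, 1.91 times as large. The quotient of Per2 to Nr1d2 was 1.81 times as large, and that of Per2 to Bhlhe41 was 2.76 times as large. For Nr1d2 to Dbp the quotients of the genotypes were nearly equal, 1.05 times apart. Dbp to Bhlhe41 differed by 1.45 times and Nr1d2 to Bhlhe41 by 1.53 times. The distance of Per2 from the 3 lower members in these means is thus the same under each of the 4 divisions below.

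The distance of each gene from a ratio of 1 does depend on it. Dividing by the quotient of mean assigned reads in Alb-D2KO and control (0.932) gave 1.52 for Per2, 0.841 for Nr1d2, 0.797 for Dbp and 0.551 for Bhlhe41. Dividing by that of the median gene (0.8896) gave 1.59, 0.881, 0.836 and 0.577 in the same order. All 4 divisors were below 1, so each division raised every ratio and Per2 could only move farther from 1. Of the lower members, Bhlhe41 stayed past 1.2-fold under all 4 divisions tried. Dbp stayed past 1.2-fold under 3 of them and Nr1d2 under 0.

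**Figure D3:**
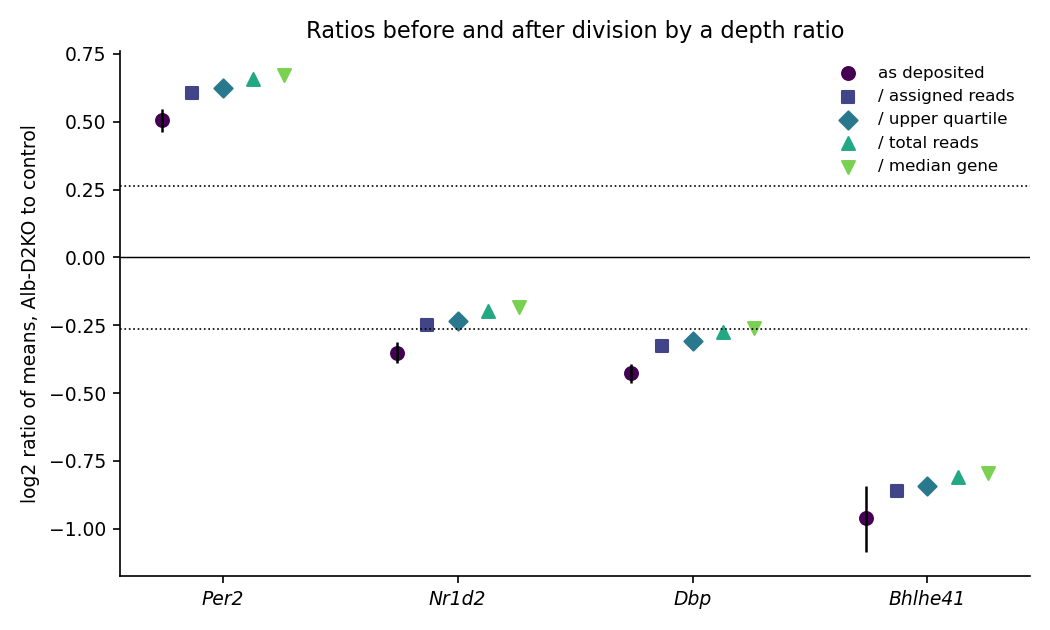
Log2 ratio of Alb-D2KO to control means for each gene, as deposited (circles, with the 95% counting interval as a line) and after division by the ratio of assigned reads, upper quartiles, total reads or medians. Dotted lines mark a change of 1.2-fold. Per2 and Bhlhe41 lie outside the dotted lines under every scaling, and Nr1d2 falls inside them under each division. Each division raises every ratio, so Per2 could not move inward.

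In the whole table, 89.4% of genes were lower and 10.6% higher in Alb-D2KO liver, and 3 of the 4 members were lower. Since the table was made from this same contrast, nothing is read from that count. The median ratio was 0.665 over the 1363 lower genes and 1.69 over the 162 higher genes, so that Per2, Dbp and Nr1d2 lay nearer to 1 than the median of their direction and Bhlhe41 lay farther. The median summed count was 1879 for lower and 1150 for higher genes, below that of each member in its direction. The authors' filter used a p-value, so places by ratio may partly follow abundance, which was not tested. Once divided by the quotient for the median gene, 65.0% of listed genes were still past 1.2-fold lower and 10.6% past 1.2-fold higher. Among the members 1, Bhlhe41, was past it below and 1, Per2, above. That quotient was below 1, so no higher gene could fall back within 1.2-fold.

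**Figure D4:**
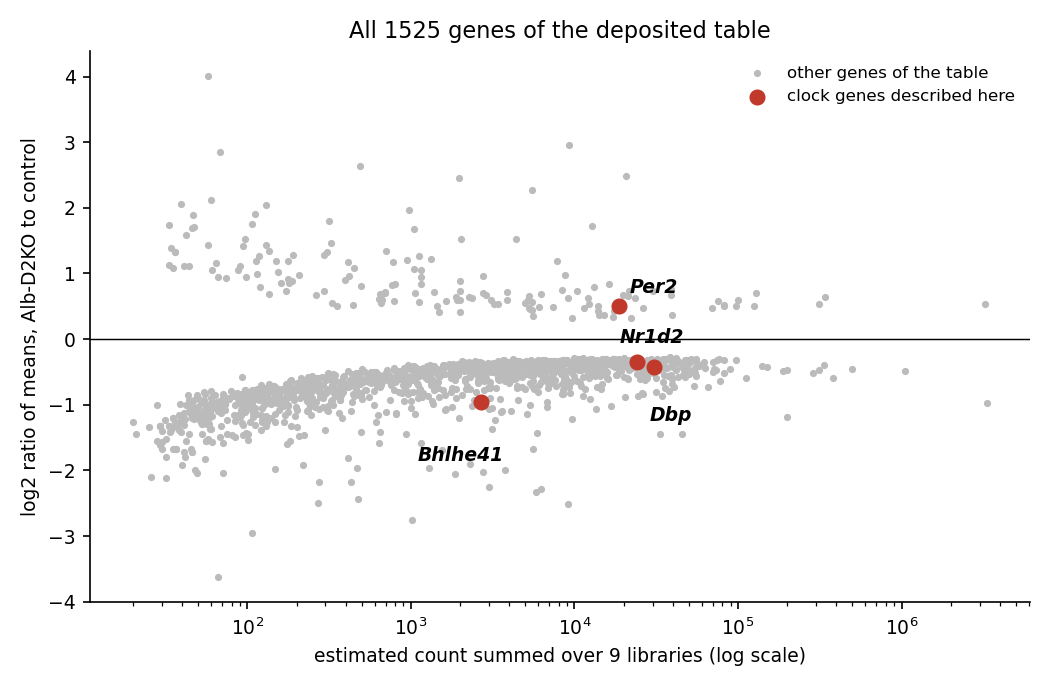
All 1525 genes of the table, with the estimated count summed over the 9 libraries on the horizontal axis (log scale) and the log2 ratio of Alb-D2KO to control means on the vertical axis. Red points are the 4 clock genes. Genes near 0 are missing because the table holds changed genes only, and Per2 is the red point above 0.

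The rest of the clock was followed through lists of its parts. A gene outside the table has no value here, so absence from the table does not show an unchanged level. About 6.63% of all quantified genes were in the table, a share that includes weakly expressed genes. Of 13 E-box clock genes, the 4 members were in the table, and Per1, Per3, Cry1, Cry2, Nr1d1, Tef, Hlf, Bhlhe40 and Ciart were not. Thus the closest relatives of the members, among them Per1 beside Per2 and Nr1d1 beside Nr1d2, gave no value to compare.

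Of 5 genes that form the positive arm or answer to ROR elements (Arntl, Clock, Npas2, Nfil3 and Rora), 1 was in the table. This was Rora, the nuclear receptor that competes with NR1D2 for ROR elements, whose authors' mean was 2509 for Alb-D2KO and 3398 for control (ratio 0.738, counting interval 0.720 to 0.757). Arntl, Npas2 and Nfil3, on which NR1D2 and RORA act, were not in the table. The ratio of Rora was close to those of Dbp and Nr1d2. The share of all quantified genes in the table was about 6.63%, so nothing is read from 1 of 5.

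Of 11 kinases, ligases and metabolic regulators of clock proteins, 1 was in the table. This was Prkaa1, a catalytic subunit of the AMP-activated kinase, at 358.0 for Alb-D2KO and 448.2 for control (ratio 0.799). Of 6 subunits of the NCOR corepressor complex through which NR1D proteins repress, 1 was in the table, Ncor1, at 4109 and 5113 (ratio 0.804). With about 6.63% of all quantified genes in the table, nothing is read from these counts. Divided by the quotient for the median gene, Prkaa1 (0.898) and Ncor1 (0.903) were within 1.2-fold, and Rora (0.830) was just past it.

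On the output side, 0 of 8 genes known to depend on DBP, TEF and HLF in liver were in the table (Alas1, Por, Nr1i3, Cyp2b10, Cyp2a4, Cyp2a5, Cyp7a1 and Ppara). Of 17 other transcripts with a daily rhythm in liver, 3 were in the table. About 6.63% of all quantified genes were in it, and nothing is read from either count. Noct, a rhythmic phosphatase that acts on NADPH, was higher, at 3076 for Alb-D2KO and 1844 for control (ratio 1.67, counting interval 1.62 to 1.71). Rgs16, a regulator of G protein signalling, was lower at 749.9 and 1249 (ratio 0.601). Avpr1a, the hepatic vasopressin receptor, was lower at 355.0 and 528.8 (ratio 0.671). Rgs16 and Avpr1a stayed past 1.2-fold under the 4 divisions, which could only raise the ratio of Noct. For Noct 39.0% of words and for Rgs16 9.09% also occur in other genes, so part of their counts is uncertain.

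Per2 also belongs to a group of liver transcripts that can follow body temperature and other systemic cues. Of 8 other genes of that kind, 5 were in the table, 4 higher and 1 lower. Beside this, 6.63% of all quantified genes were in the table, and 10.6% of genes in it were higher. The list was drawn up with earlier results known, so nothing is read from these counts. Hspa1b, an inducible HSP70 chaperone, stood at 2306 for Alb-D2KO and 698.3 for control (ratio 3.30, counting interval 3.18 to 3.44). Its near-identical neighbour Hspa1a had 184.1 and 47.1 (ratio 3.91). The words of Hspa1a were shared to 70.1% with other genes, mostly Hspa1b, and the summed means of the pair gave a ratio of 3.34. Hspa1a and Hspa1b are therefore not separate observations.

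Hsph1, a co-chaperone of HSP70, had 1913 and 1103 (ratio 1.73), and none of its words, 0%, were shared. Hsp90aa1, the inducible HSP90, had 5608 and 3309 (ratio 1.69), with 51.5% of its words shared with other genes. Cirbp, the RNA-binding protein induced by cold, was lower at 304.0 and 394.2 (ratio 0.771). The 4 higher genes stayed past 1.2-fold under all 4 divisions, but had to, as each divisor was below 1. Cirbp, which was lower, stayed past 1.2-fold under 1 of them. Hspa8, Rbm3 and Tubb4b of the same list were not in the table. No test between genotypes was made on these means.

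**Figure D5:**
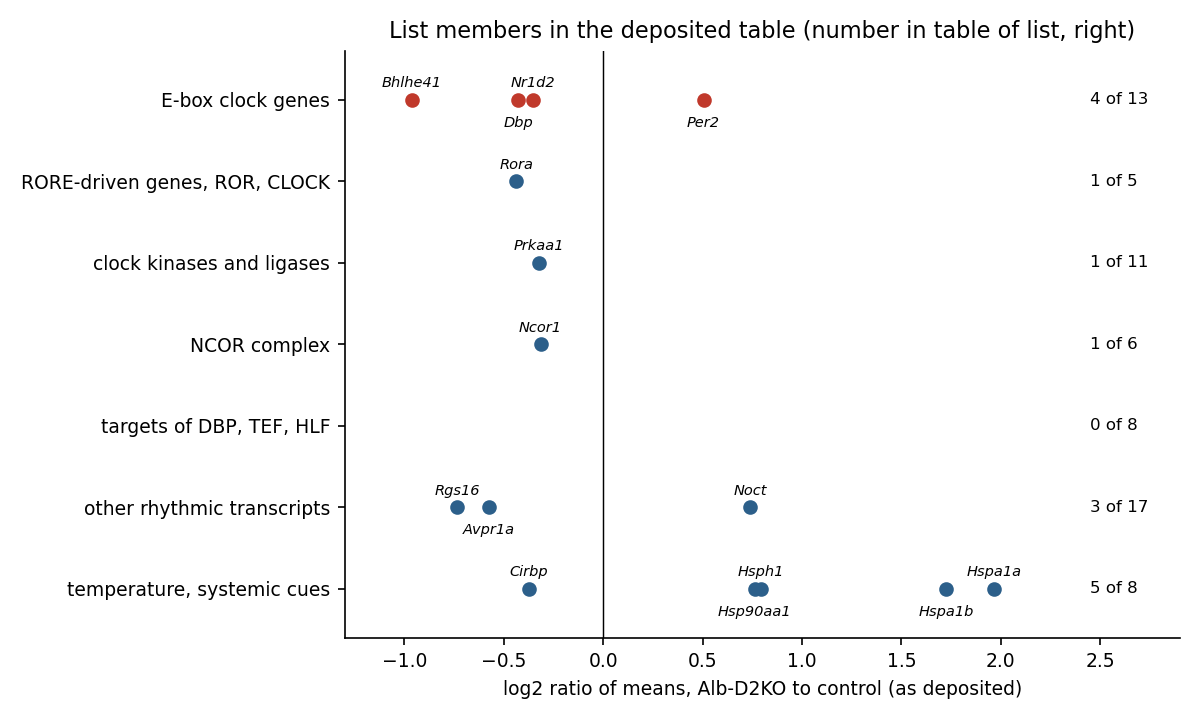
Log2 ratio of Alb-D2KO to control means, as deposited, for every list member found in the table. Rows are the 7 lists, red points are the 4 clock genes, and the numbers at the right give how many genes of each list were in the table. The heat shock genes Hspa1a, Hspa1b, Hsph1 and Hsp90aa1 lie to the right of Per2.

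Altogether 15 of 68 genes of these 7 lists were in the table, 9 lower and 6 higher. The 4 members were selected for being there, and without them 11 of 64 genes (17.2%) were in the table, 6 lower and 5 higher, beside 6.63% of all quantified genes. Of these 11, 5 came from the temperature list of 8 genes, 4 higher and 1 lower. The pooled share thus leans on that list. The lists were drawn up with earlier results known, so no more is read from this share.

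Gene numbers of annotated sets were taken from the deposited enrichment reports, whose tests were not used. Of 119 genes annotated to circadian rhythm, 14 were in the table (11.8%). Rhythmic process had 24 of 217 (11.1%), regulation of circadian rhythm 12 of 97 (12.4%), circadian regulation of gene expression 7 of 65 (10.8%) and entrainment by photoperiod 3 of 21 (14.3%). Of 15007 genes with any biological process annotation, 7.05% were in the table. The pathway Circadian rhythm had 5 of 31 genes in the table (16.1%), and Circadian entrainment, which covers neuronal signalling, had 3 of 80 (3.75%). The members were chosen for being in the table and are clock genes, so any set that holds them is raised by the choice, and these shares are a description with no test. The reports do not name the genes, so the members could not be taken out, and the sets overlap and give no direction.

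Markers of other liver cells were looked up to place these ratios. Of 5 endothelial markers 2 were in the table, Stab2 (ratio 0.805) and Kdr (0.789). Of 5 stellate cell markers there was 1, Pdgfrb (0.767), and of 4 leukocyte markers 1, Cd3e (0.520). Of 4 cholangiocyte markers 1 was in the table, Sox9, which was higher (1.51). Of 5 Kupffer cell markers 0 were. Beside these counts, 6.63% of all quantified genes were in the table, and 89.4% of genes in it were lower. Stab2 and Kdr stayed past 1.2-fold under 0 of the 4 depth divisions and Pdgfrb under 2. Cd3e and Sox9 did so under all 4. The endothelial and stellate markers had ratios near those of Nr1d2 and Dbp, and the part of cell makeup in these ratios was not tested.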

How the data were processed

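Livers were flash frozen, RNA was isolated with the RNeasy kit, and RNA-seq libraries were sequenced paired-end on a NovaSeq. The authors aligned reads with STAR and assigned them to GENCODE M24 genes on mm10 with Partek Flow's E/M quantifier. The authors deposited the read count of each library, the percent of those reads within exons and introns, and, over genes, the mean, median and upper quartile of the estimated counts. The deposited gene table holds estimated counts summed over libraries and averaged by genotype for genes past the authors' thresholds. Its remaining columns, the p-value, false discovery rate, ratio and fold change of the authors' own comparison, were not used, nor were scores and p-values of the enrichment reports. A further 9 per-library columns were not used.

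Multiplying each genotype's mean by its number of libraries (4 and 5) and adding gave the summed count in 1525 of 1525 genes (relative tolerance 1e-06), and in 698 genes both genotype sums were whole numbers within 0.001, so the means were read as unscaled. Genes quantified were computed as assigned reads divided by the mean over genes (23000.1 to 23009.1 over libraries). Assigned reads were computed as the exonic percent of each library's total reads. Ratios were computed from the 2 means. Their counting intervals are exact Clopper-Pearson intervals on rounded summed counts. Depth was compared by exact two-sided permutation (126 arrangements) with SciPy 1.17.1, where the smallest possible p is 0.0159. Replicates were numbered in accession order. Each library was taken as 1 animal, and p-values measure only the spread between these libraries.

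Coordinates, exon lengths and 31-base transcript words, compared on either strand, are those of GENCODE M21 on mm10, an earlier release than the authors'. Promoter windows span 300 bases around each RefSeq start. Members and lists were chosen with earlier results of these data known. Some genes of these lists are not reported here and were left out of the lists' counts. Named genes were the 4 members and the list members found in the table, at most 5 a list, with Gm43909 and the cell markers added. Code was tested on simulated data. Alternatives were depth divisions, a pseudocount, count minimums, fold thresholds and leaving out each library from the depth measure.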

Additional observations from a re-analysis of the deposited data

Results flagged for a closer look

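Alb-D2KO replicate 1 had 50322325 total reads, and its distance to the next library of its genotype was 0.852 of the range of that group of 4. Among 8 combinations of genotype and depth measure, over 4 measures, 1 held a library that stood apart in this way, where 0.4 would by chance. The measures come from the same libraries, so these 8 looks were not separate. Leaving this library out of the assigned-read ratio moved the divided ratios to 1.61 for Per2, 0.889 for Nr1d2, 0.843 for Dbp and 0.582 for Bhlhe41. The gene means could not be recomputed without it and still hold this library. These shifts therefore come from the divisor alone and do not show the genes without it.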

How the results depend on the processing

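All 4 members kept their direction under every division and with a pseudocount of 1. Division by assigned reads, total reads, medians or upper quartiles gave 1.52, 1.58, 1.59 and 1.54 for Per2, then 0.841, 0.871, 0.881 and 0.850 for Nr1d2, 0.797, 0.826, 0.836 and 0.807 for Dbp, and 0.551, 0.571, 0.577 and 0.557 for Bhlhe41. These shifts follow from the construction, as each division applies 1 factor. Every divisor was below 1, so Per2 could only rise. Each library was also left out of the assigned-read ratio in turn, with the gene means unchanged. The divided ratio then ran from 1.48 to 1.61 for Per2, 0.819 to 0.889 for Nr1d2, 0.776 to 0.843 for Dbp and 0.536 to 0.582 for Bhlhe41. These ranges reflect the divisor alone. The log2 difference in assigned reads ran from -0.18 (without Alb-D2KO replicate 1, exact permutation p = 0.0714) to -0.065 when each library was left out, and was below 0 with the other measures. Lower E-box clock genes fell from 3 to 1 past 1.2-fold once divided by the quotient for the median gene and to 1 past 1.5-fold, and higher ones from 1 to 0 past 1.5-fold. Of the temperature list, the 1 lower gene was lost (0) past 1.5-fold and after division by medians, total reads or upper quartiles. Over all listed genes, 794 lower and 87 higher genes had a summed count of at least 1000, and 688 lower genes were past 1.5-fold. The alternatives of the temperature list and, for counts of genes, the total-read and upper-quartile divisions were chosen after seeing the data. No paired analysis was possible because the labels give no number shared between genotypes. No replicate could be left out of a gene mean, since counts per gene and library were not used here, and no count model such as a quasi-likelihood test was run.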
